A study of Canis lupus familiaris with 12 samples.

Results

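The comparison described here is the shared effect of 5-aminolevulinic acid (ALA) on canine peripheral blood mononuclear cells (PBMCs), taken over resting cells and cells stimulated with concanavalin A (ConA) together. All 12 libraries of the series entered it, 6 with ALA and 6 without. The groups were ALA alone (1.0 mM), ConA (0.5 µg/ml) with ALA, untreated cells and ConA alone, with 3 libraries each, numbered 1 to 3 in the titles. All were harvested after 24 hours in culture. The donors were specific pathogen-free male beagles, and a density gradient was used for isolation, so lymphocytes and monocytes are the cells such a preparation should hold. Each ALA library was set against the library with the same number and the same ConA state, which gave 6 pairs, 3 resting and 3 with ConA. The 6 pairs come from 3 numbers, yet the tests and the counts of pairs treat them as separate units. Whether each number is its own animal is not stated in the labels, and p-values cover only the spread among these libraries and part of it may be technical.

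ALA is the first committed building block of heme. Cells normally make it in the mitochondria with the enzyme ALAS1, and added ALA enters the pathway past that step. The following enzymes join it into porphyrins, and ferrochelatase (FECH) inserts iron to complete heme. Heme is known to repress ALAS1 and to induce heme oxygenase 1 (HMOX1), which degrades it. It induces HMOX1 partly by taking the repressor BACH1 off genes that the transcription factor NRF2 also drives. Porphyrins that accumulate without iron make cells sensitive to light. ConA is a plant lectin that crosslinks receptors on T cells and activates them.

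The libraries held 13390692 to 19355701 exon reads with ALA and 15131294 to 21517099 without. T cell, B cell and monocyte markers were detected in every library. The libraries numbered 1 stood apart in the share of exon reads from mitochondrially encoded genes, with 3.59% and 4.82% in the ALA libraries and 3.98% and 4.48% in the libraries without ALA, against 11.8% to 23.3% elsewhere. The resting pair of number 1 also stood apart in cell markers. Its ALA library held 3600 CPM (counts scaled to library size, on the usual per-million basis) of summed monocyte markers, against 1790 CPM in its untreated partner, and 2690 against 3650 CPM of T cell markers. Values without the resting pair of number 1, or without both pairs of number 1, are given for some genes and lists only. Most of the calls described below were lost without both pairs. A gene given without such a value need not have kept its call.

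Over the 6 pairs, ALA raised 44 genes and lowered 18 at an adjusted p under 0.05 in edgeR's quasi-likelihood test. These were 0.464% of the 13358 genes tested, 0.329% higher and 0.135% lower. Of the 62 genes, 52 carry a symbol. The samples are bulk, so here and throughout fewer cells of a type and less RNA per cell cannot be told apart. The rises ran from 0.47 to 3.06 on the log2 scale with a median of 0.88, and 18 of them were at least 2-fold. The falls ran from -0.40 to -2.51 with a median of -0.69, and 4 were at least 2-fold. A further count sets the scale: 1184 genes, 8.86% of those tested, had an unadjusted p under 0.05, 4.82% higher and 4.04% lower.

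The direction was shared across the pairs. Of the 44 genes that rose, 41 were higher with ALA in 6 of 6 pairs, and all 18 genes that fell were lower in 6 of 6. Among all genes tested, 5.36% had 1 direction in 6 of 6 pairs, 2.75% higher and 2.61% lower, and the test favours such genes. The calls needed the pairing: with 4 group means and no block for the pairs, 0 genes passed in edgeR, and 383 had an unadjusted p under 0.05. The count of calls itself rested on single pairs. Without the ConA pair of number 3, 1 gene passed. Without the ConA pair of number 1, 10 passed, and without that of number 2, 27 passed. Without the resting pair of number 1, by contrast, 171 passed, 60 of the 62 among them, and without the resting pair of number 3, 38 passed. With both pairs of number 1 left out, 59 genes passed, of which 23 were among the 62, and with both pairs of number 3 left out, 6 passed. List counts given below without the resting pair of number 1 stand beside 171 genes over all those tested, not 62. Those given without both pairs of number 1 stand beside 59. No gene passed in all 6 fits that leave out 1 pair. Those that passed in 5 of the 6 were NETO2, GADD45G, AFDN, GADD45A, FADS1, LGALS3 and PRDX6 among the rises and CALHM6 and MATK among the falls. The count of settings, not the rule for named genes, singled out LGALS3, which encodes the sugar-binding protein galectin-3, and it was picked after its values were seen.

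**Figure D1:**
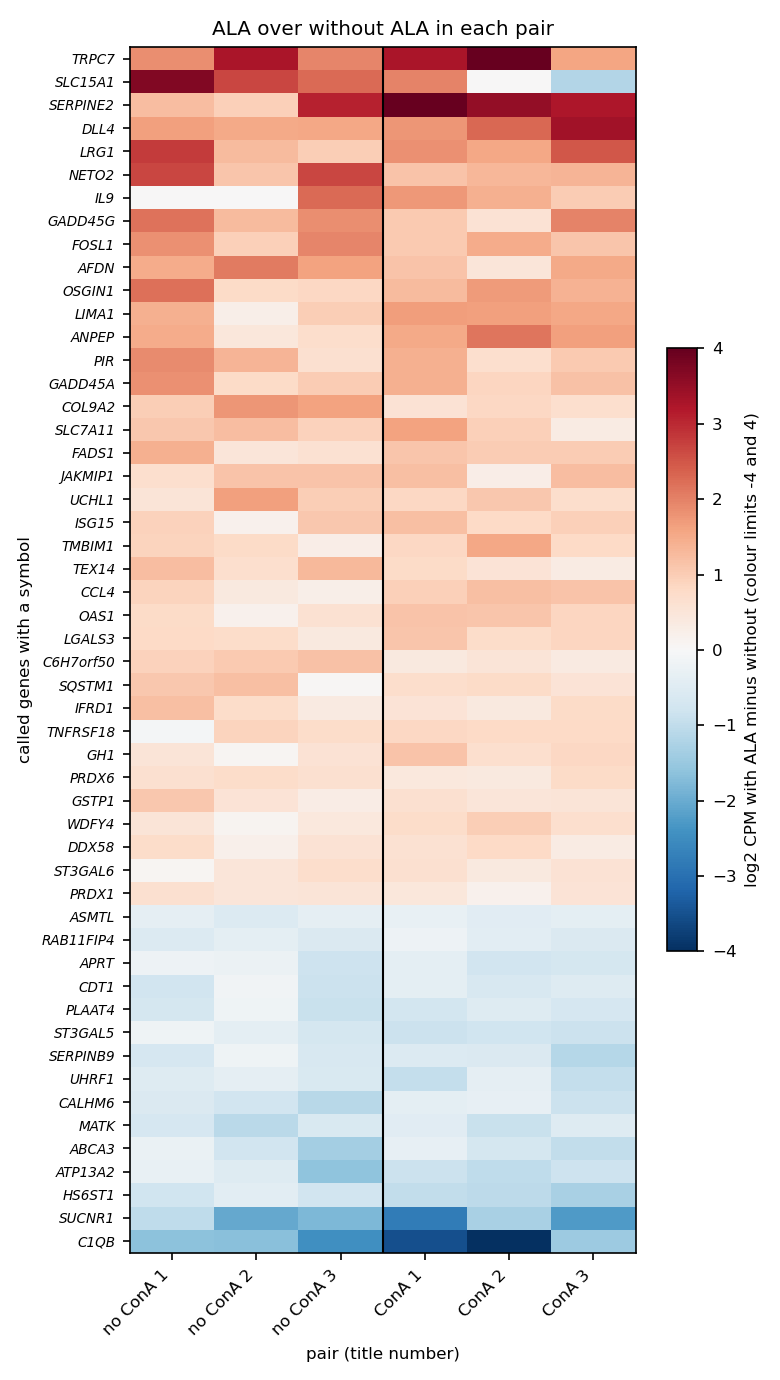
Difference in log2 CPM, with ALA minus without, in each of the 6 pairs (columns, 3 resting on the left and 3 with ConA on the right) for the 52 called genes with a symbol (rows, by fold change). Colour limits are -4 and 4. Nearly every row keeps 1 colour across both states. SLC15A1 and IL9 were each higher with ALA in 4 of 6 pairs, and SLC15A1 was lower in 1. Pale cells also occur in rows of other rises, such as SQSTM1, GH1 and ISG15.

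Among the enzymes of the pathway that ALA feeds, ALAS1 had the largest difference. Of 11 heme synthesis genes tested 0 passed, against 0.464% of all genes, too few genes to tell these shares apart, and their median log2 fold change was -0.10, against -0.0044 over all genes tested. ALAS1 stood at 428, 457 and 517 CPM in ALA cells, against 324, 701 and 1530 CPM in untreated cells. Under ConA it had 533, 643 and 667 CPM with ALA, against 1710, 2410 and 2140 CPM without. The ConA groups do not overlap, whereas in resting cells only the pairs of numbers 2 and 3 were lower with ALA. The log2 fold change of ALAS1 was -1.20 ± 0.34 (SE) over both states, lower in 5 of 6 pairs, with an adjusted p of 0.33. The resting pair of number 1 was the exception, and without it the value was -1.50 with an adjusted p of 0.0063; without both pairs of number 1 it was -1.45, adjusted p 0.018. In the fit with 1 term per state it was -0.60 ± 0.36 in resting cells and -1.76 ± 0.36 with ConA, and the difference between the states had an adjusted p of 0.56. With ALA the 6 libraries lay close together, between 428 and 667 CPM, while those without ALA lay between 324 and 2410 CPM.

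The other enzymes differed by less. FECH had 17.6, 11.3 and 15.0 CPM in ALA cells, against 20.4, 11.4 and 13.1 CPM in untreated cells. Its log2 fold change was -0.15 ± 0.14, adjusted p 0.85. CPOX, a late mitochondrial step, had -0.27 ± 0.17 and ALAS2, the isoform of red cell precursors, had 0.48 ± 0.20, neither of which passed. On the deposited TPM scale, which divides by transcript length, the median level of ALAS1 was 252 in ALA cells, 274 with ConA and ALA, 393 in untreated cells and 928 with ConA.

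Next come the genes that break heme down and handle iron. Of 20 tested 0 passed, against 0.464% of all genes, with a median of 0.10. HMOX1 stood at 195, 255 and 98.4 CPM in ALA cells, against 202, 177 and 60.8 CPM in untreated cells, and at 44.7, 59.2 and 69.5 CPM with ConA and ALA, against 93.0, 33.3 and 65.5 CPM with ConA. Its groups overlap in both states, and its log2 fold change was 0.17 ± 0.25, adjusted p 0.92. BLVRA, which turns biliverdin into bilirubin after HMOX1 has acted, came closest to the threshold. It had 45.8, 32.5 and 30.8 CPM in ALA cells, against 16.8, 21.1 and 24.7 CPM in untreated cells, and was higher with ALA in 6 of 6 pairs, by 0.70 ± 0.14 with an adjusted p of 0.053. BACH1, the heme-binding repressor, had 0.40 ± 0.11, adjusted p 0.20, also higher in 6 of 6 pairs. TFRC, the receptor that imports transferrin-bound iron, had -0.12 ± 0.12, adjusted p 0.87.

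Of 10 ALA and porphyrin transporters tested, 1 rose, SLC15A1, the proton-driven peptide transporter PEPT1, which is known to carry ALA into cells. Its gene lies on chromosome 22, 48777630 to 48827533, minus strand, in CanFam3.1. SLC15A1 had 30.9, 18.8 and 5.98 CPM in ALA cells, against 2.25, 2.84 and 1.16 CPM in untreated cells. With ConA it was nearly absent, at 0.345, 0 and 0 CPM with ALA, against 0, 0 and 0.142 CPM without. The rise of 2.90 ± 0.47, adjusted p 0.024, thus rested on the 3 resting pairs, where the log2 fold change was 3.0 ± 0.50. Without the resting pair of number 1 it was 2.41, adjusted p 0.094, and without both pairs of number 1 it was 2.24, adjusted p 0.19. The taurine transporter SLC6A6 had 0.21 ± 0.10 and SLC36A1, a proton-coupled amino acid transporter that also carries ALA, had -0.065 ± 0.29. ABCG2, which exports porphyrins, had 0.52 ± 0.23, higher in 5 of 6 pairs, adjusted p 0.50. The median of the 10 transporters was 0.10. The share of all genes that rose was 0.329%.

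**Figure D2:**
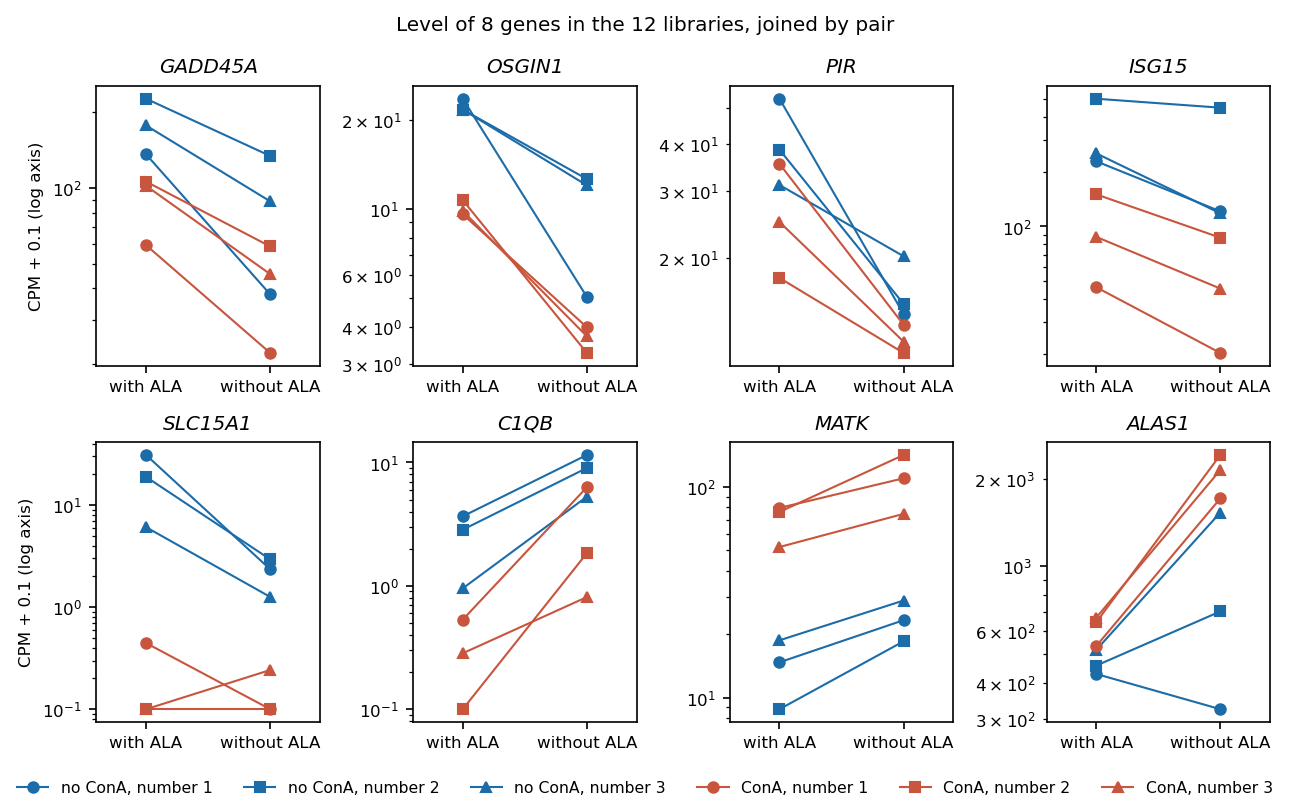
Level in CPM plus 0.1, on a log axis, of 8 genes in the 12 libraries, with ALA on the left of each panel and without ALA on the right; lines join the libraries of a pair, blue for resting cells and orange for cells with ConA. GADD45A, OSGIN1, PIR and ISG15 fall from left to right in 6 of 6 pairs, C1QB and MATK climb in 6 of 6, SLC15A1 separates only in resting cells, and ALAS1 is lower with ALA in 5 of 6.

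Among targets of NRF2, the factor that drives antioxidant and detoxifying genes under oxidant stress, 5 of 21 tested rose and 0 fell. Over all genes, 0.329% rose and 0.135% fell. The median of the 21 was 0.43, against -0.0044 over all genes, and 17 of 21 were positive, against 6547 of all 13358 genes. PIR, an iron-binding nuclear protein, had 52.7, 38.6 and 31.1 CPM in ALA cells, against 14.1, 15.0 and 20.1 CPM in untreated cells. In stimulated cells it had 35.4, 17.6 and 24.8 CPM with ALA, against 13.2, 11.1 and 11.9 CPM without. The groups do not overlap in either state. Its rise was 1.18 ± 0.16, adjusted p 0.012. OSGIN1, an oxidative stress-induced growth inhibitor, had 23.4, 21.5 and 21.5 CPM in ALA cells, against 4.95, 12.5 and 11.9 CPM in untreated cells. The ConA libraries had 9.49, 10.6 and 9.74 CPM with ALA, against 3.89, 3.17 and 3.62 CPM without it. OSGIN1 thus reached nearly 1 level with ALA in each state, and it rose by 1.37 ± 0.20, adjusted p 0.013.

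The other NRF2 targets that rose were SLC7A11, the cystine importer that supplies glutathione synthesis (1.04 ± 0.18), SQSTM1, the autophagy receptor p62 (0.73 ± 0.13), and PRDX1, a peroxide-reducing enzyme (0.47 ± 0.085). Each was higher in 6 of 6 pairs, with adjusted p of 0.024, 0.034 and 0.028. NQO1, a quinone reductase and standard NRF2 readout, had a larger difference that did not pass. It stood at 265, 133 and 96.6 CPM in ALA cells, against 37.8, 42.4 and 66.5 CPM in untreated cells, and at 81.3, 54.0 and 59.1 CPM with ConA and ALA, against 14.8, 17.8 and 22.5 CPM with ConA. These groups do not overlap in either state. The log2 fold change of NQO1 was 1.75 ± 0.31, higher in 6 of 6 pairs, with an adjusted p of 0.11. Without both pairs of number 1 it was 1.29 with an adjusted p of 0.014. TXNRD1, a thioredoxin reductase, had 0.43 ± 0.11 and GCLC, the rate-limiting enzyme of glutathione synthesis, 0.62 ± 0.24, neither of which passed. The median over the list was 1.07, 0.77 and -0.12 in resting pairs 1, 2 and 3 and 0.39, 0.42 and 0.30 in ConA pairs 1, 2 and 3, so resting pair 3 was the exception and resting pair 1 the highest. Summed monocyte and macrophage markers had log2 ratios of 1.01, -0.24 and -0.26 in the resting pairs and 0.39, 0.19 and 0.48 in the ConA pairs, in the same order, and their part in the list's values was not tested. Without the resting pair of number 1, 5 NRF2 targets rose and 1 fell, with a median of 0.27. More of all genes passed in that fit as well, as given above. Without both pairs of number 1, 3 NRF2 targets rose and 0 fell, with a median of 0.31.

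Outside that list, PRDX6, a peroxidase that repairs oxidized membrane lipids, rose as well. It had 40.8, 38.1 and 55.8 CPM in ALA cells, against 26.0, 22.8 and 35.8 CPM in untreated cells, and 156, 143 and 135 CPM with ConA and ALA, against 115, 110 and 80.1 CPM with ConA. Its groups do not overlap, and its rise was 0.60 ± 0.084, adjusted p 0.012. PRDX6 and SLC7A11 were the 2 of 21 ferroptosis and glutathione genes that rose, with 0 lower and a median of 0.09 for the list. In fatty acid synthesis, 1 of 10 genes rose, FADS1, a desaturase of polyunsaturated fatty acids, by 0.96 ± 0.12 with an adjusted p of 0.0058. Only 41.6% of its exon reads were unique and it overlaps FADS2, so its value is uncertain to that extent. Of 22 cholesterol synthesis genes 0 passed, with a median of 0.20. Beside these 3 lists, 0.464% of all genes passed, 0.329% higher and 0.135% lower.

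Both growth arrest genes GADD45A and GADD45G rose. GADD45A, a stress sensor that slows the cell cycle and takes part in DNA repair, lies on chromosome 6, 77393036 to 77396618, minus strand. It had 136, 226 and 177 CPM in ALA cells, against 37.8, 134 and 88.5 CPM in untreated cells. Among ConA cells the level was 59.3, 106 and 102 CPM with ALA, against 22.1, 58.6 and 45.5 CPM without it. The lowest ALA library lies just above the highest library without ALA in each state. GADD45A rose by 1.17 ± 0.13, adjusted p 0.0058, by 1.19 ± 0.19 in resting cells and 1.15 ± 0.20 with ConA. GADD45G rose by 1.47 ± 0.20, adjusted p 0.014, while GADD45B, the third of the family, had -0.26 ± 0.10, lower in 6 of 6 pairs and not past the threshold.

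Of the 24 p53 targets and GADD45 genes tested these 2 passed, against 0.464% of all genes, and the median was 0.12. CDKN1A, which encodes the cell cycle inhibitor p21, had 31.4, 17.2 and 23.0 CPM in ALA cells, against 17.4, 14.7 and 18.0 CPM in untreated cells, and 0.64 ± 0.14 over both states, adjusted p 0.065. MDM2, the p53 ubiquitin ligase, had 0.16 ± 0.087.

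In DNA replication, 2 of 36 S phase genes fell and 0 rose, against 0.135% of all genes lower and 0.329% higher. CDT1, which loads the replicative helicase at origins, had 14.2, 21.9 and 11.6 CPM in ALA cells, against 24.3, 24.1 and 21.1 CPM in untreated cells. With ConA and ALA it had 64.3, 58.6 and 45.3 CPM, against 83.9, 91.4 and 64.6 CPM with ConA. It was lower with ALA in 6 of 6 pairs, by -0.55 ± 0.11, adjusted p 0.038, and it overlaps PIEZO1. UHRF1, which keeps DNA methylation in step with replication, fell by 0.64 on the log2 scale (SE 0.12, adjusted p 0.037). The replicative helicase subunits MCM2 and MCM4 had -0.28 ± 0.10 and -0.25 ± 0.094, and did not pass. Of the 36 genes, 33 were negative, against 6811 of all 13358 genes, with a median of -0.23. By pair the median was 0.07, -0.05 and 0.07 in resting cells and -0.47, -0.31 and -0.54 with ConA, so the negative median came from the ConA pairs, while CDT1 and UHRF1 were lower in both states. Without both pairs of number 1, 0 of these genes passed and the median was -0.22.

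Genes of G2 and mitosis had 0 of 33 passing, against 0.464% of all genes, and a median of 0.17. Here the pair medians split by state, at 0.32, 0.62 and 0.85 in resting cells and -0.40, -0.45 and -0.05 with ConA. MKI67, the proliferation antigen, had 16.2, 29.3 and 96.0 CPM in ALA cells, against 10.3, 5.04 and 53.7 CPM in untreated cells. Under ConA it had 25.5, 24.2 and 102 CPM with ALA, against 31.5, 34.5 and 62.7 CPM without. Its log2 fold change over both states was 0.60 ± 0.39, adjusted p 0.77.

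Of 28 interferon-stimulated genes, which cells turn on against viruses, 3 rose and 0 fell, and 27 were positive, with a median of 0.29. Over all genes, 0.329% rose, 0.135% fell and 6547 of 13358 were positive. ISG15, a ubiquitin-like modifier, had 228, 503 and 252 CPM in ALA cells, against 121, 449 and 118 CPM in untreated cells. In stimulated cells it had 46.3, 150 and 87.6 CPM with ALA, against 20.1, 86.7 and 45.5 CPM without. The groups overlap because number 2 was high in each group, while the ALA library was the higher in each pair. ISG15 rose by 0.85 ± 0.12, adjusted p 0.013. In CanFam3.1 its annotated span, chromosome 5, 56236318 to 56404695, plus strand, takes in other genes, and the sources do not say whether counting used strand, so reads of overlapping genes cannot be told apart.

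OAS1, a sensor of double-stranded RNA that activates RNase L, had 320, 389 and 185 CPM in ALA cells, against 189, 343 and 120 CPM in untreated cells. It rose by 0.78 ± 0.12, adjusted p 0.016, and DDX58, which encodes the RNA sensor RIG-I, rose by 0.54 ± 0.094, adjusted p 0.024. MX2, a GTPase that blocks viruses, had 0.52 ± 0.11, adjusted p 0.067, and RSAD2, viperin, had 1.13 ± 0.27, adjusted p 0.15, each higher in 6 of 6 pairs. The pair medians of the list were 0.34, 0.01 and 0.36 in resting cells and 0.41, 0.52 and 0.33 with ConA, near 0 in resting pair 2 alone. Without both pairs of number 1, 1 of the 28 rose and the median was 0.29.

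**Figure D3:**
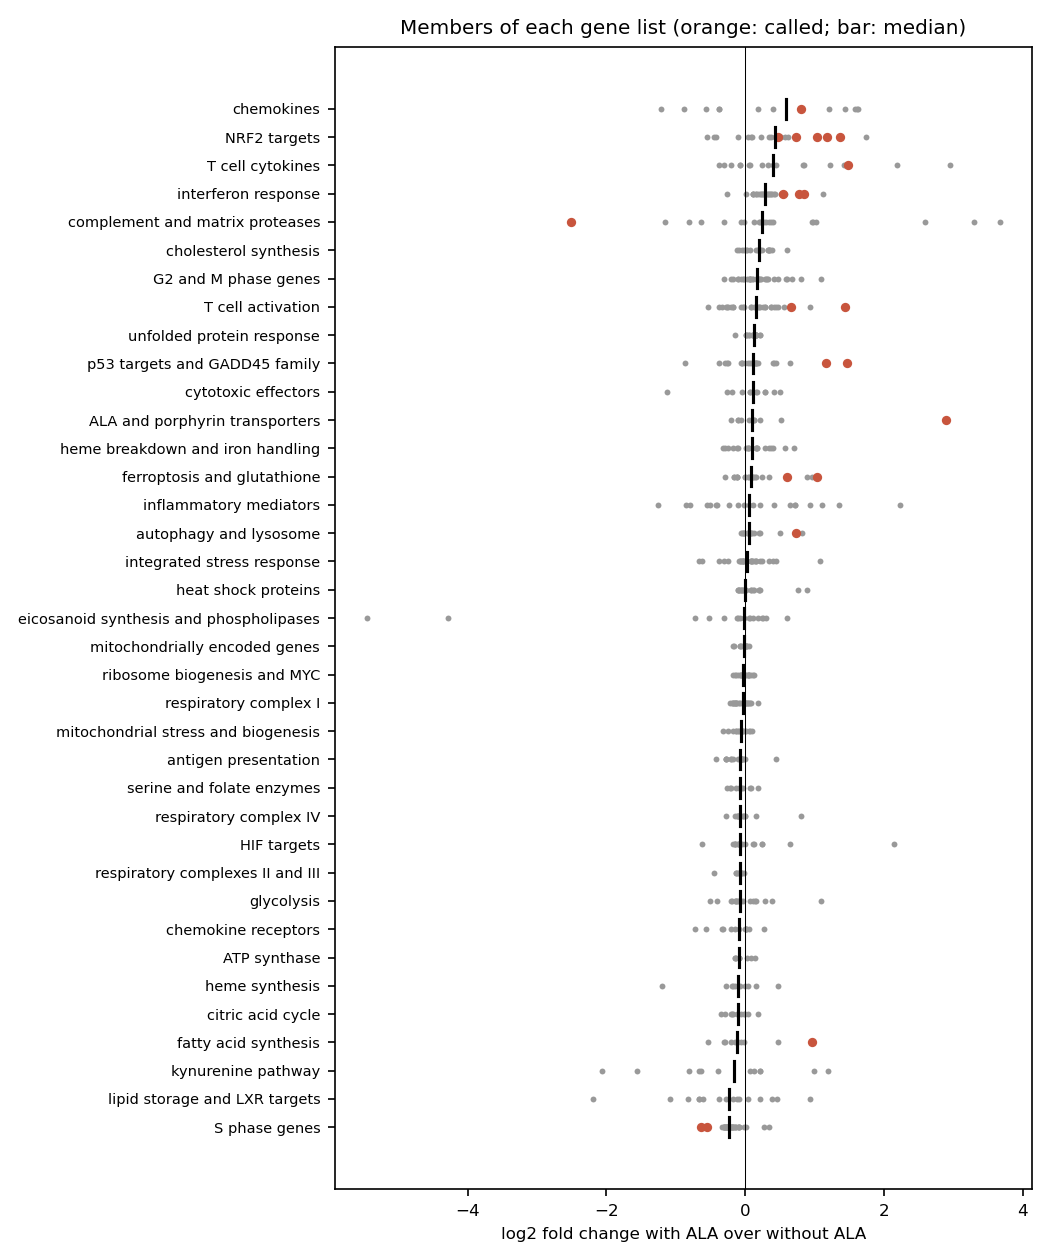
Log2 fold change with ALA over without ALA of each tested member of the gene lists (rows, by median; cell type marker lists left out). Orange points passed the test, grey points did not, and the bar is the median. Chemokines, NRF2 targets, T cell cytokines and interferon response genes have the highest medians, S phase genes and lipid storage genes have the lowest medians, both -0.23, and the respiratory complex lists lie near 0. Values are over both states. The median of T cell cytokines was 0.05 in resting cells and 0.44 with ConA, and that of S phase genes 0.04 and -0.48.

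Of 14 chemokines tested, 1 rose, against 0.329% of all genes, and the median was 0.59. CCL4, which draws macrophages and T cells, had 87.2, 70.5 and 61.4 CPM in ALA cells, against 46.9, 53.7 and 52.8 CPM in untreated cells. The ConA libraries had 293, 236 and 207 CPM with ALA, against 153, 102 and 94.3 CPM without it. The groups do not overlap in either state, and the rise was 0.80 ± 0.13, adjusted p 0.024. Its neighbour CCL3, which overlaps it in the annotation, had 1.44 ± 0.25, higher in 6 of 6 pairs, adjusted p 0.094. CXCL8, the neutrophil attractant, had 1.58 ± 0.35 and CCL7, a monocyte attractant, 1.63 ± 0.36. By contrast CCL5 and CXCL10, which draw effector T cells, had -0.38 ± 0.10 and -0.88 ± 0.30, each lower in 6 of 6 pairs, and none of these 4 passed. Without the resting pair of number 1, 2 chemokines rose and 1 fell, in a fit where more of all genes passed as well. Without both pairs of number 1, 0 chemokines passed and the median was 0.40.

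Among 19 T cell cytokines 1 rose, IL9, a growth factor for mast cells, with a median of 0.40 for the list. By pair the median was -0.10, 0.09 and 0.29 in resting cells and 0.70, 0.55 and 0.31 with ConA. Of the 19, 12 had 1 sign in both states, so the list median came mainly from the ConA pairs. Over all genes, 0.329% rose. IL9 had 0, 0 and 1.01 CPM in ALA cells, against 0, 0 and 0.116 CPM in untreated cells. Among ConA cells the level was 18.9, 49.8 and 39.3 CPM with ALA, against 5.66, 18.6 and 19.6 CPM without it. Its rise of 1.48 ± 0.23, adjusted p 0.024, thus came mainly from ConA cells. IL22, a cytokine that acts on epithelium, had 84.6, 123 and 183 CPM with ConA and ALA, against 8.90, 9.35 and 16.1 CPM with ConA. In resting cells IL22 had 1.61, 2.88 and 112 CPM with ALA, against 0, 1.03 and 35.2 CPM without. It was higher with ALA in 6 of 6 pairs, by 2.96 ± 0.42, adjusted p 0.057. Without the resting pair of number 1, 4 of the 19 cytokines rose, with a median of 0.48, and more of all genes passed there too. Without both pairs of number 1, 1 cytokine rose, with a median of 0.42.

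IL13 (1.42 ± 0.23) and LTA, lymphotoxin alpha (0.45 ± 0.094), were also higher in 6 of 6 pairs, with adjusted p of 0.057 and 0.060. The hallmark cytokines did not pass. IL2, the T cell growth factor, had 1.22 ± 0.59, adjusted p 0.67, and was -0.0070 ± 0.58 in resting cells and 2.08 ± 0.51 with ConA. IFNG had -0.31 ± 0.29, adjusted p 0.85, TNF had 0.052 ± 0.13, adjusted p 0.96, and IL10 had 0.077 ± 0.26, adjusted p 0.97. IL6 had 14.1, 8.38 and 44.7 CPM in ALA cells, against 0.630, 3.88 and 35.9 CPM in untreated cells, and was lower with ALA in 2 of 3 ConA pairs, with 0.72 ± 0.60 over both states and 0.25 without the resting pair of number 1.

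Of 30 T cell activation genes 2 rose, against 0.329% of all genes, with a median of 0.16. FOSL1, an AP-1 transcription factor subunit that dimerizes with JUN proteins, rose by 1.44 ± 0.23, adjusted p 0.016, in 6 of 6 pairs. TNFRSF18, the costimulatory receptor GITR, rose by 0.66 ± 0.12, adjusted p 0.027, in 5 of 6 pairs, and its gene overlaps the span of ISG15. NR4A1, an immediate target of the T cell receptor, had 0.48 ± 0.10, adjusted p 0.055. CD69, an early activation antigen, had 0.29 ± 0.090, higher in 6 of 6 pairs, adjusted p 0.28.

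The largest rises by fold among called genes were in genes of low abundance. TRPC7, a calcium-permeable channel, had 2.94, 2.22 and 1.24 CPM in ALA cells, against 0.720, 0.129 and 0.233 CPM in untreated cells. With ConA and ALA it had 1.73, 2.24 and 1.93 CPM, against 0.0770, 0 and 0.568 CPM with ConA. The groups do not overlap, and the rise was 3.06 ± 0.60, adjusted p 0.042. SERPINE2, an inhibitor of thrombin and plasminogen activators, had 3.31, 4.78 and 3.80 CPM in ALA cells, against 1.35, 2.39 and 0.349 CPM in untreated cells. Under ConA it had 24.2, 7.55 and 8.27 CPM with ALA, against 1.23, 0.555 and 0.782 CPM without. The separation was wider with ConA, and the rise over both states was 2.78 ± 0.48, adjusted p 0.041. DLL4, a Notch ligand, rose by 2.38 ± 0.41, and LRG1, a secreted glycoprotein of the acute phase response, by 1.88 ± 0.29, with adjusted p of 0.024 and 0.016.

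NETO2, an auxiliary subunit of kainate receptors in neurons, had 21.0, 19.4 and 10.2 CPM in ALA cells, against 3.20, 8.92 and 1.51 CPM in untreated cells. In stimulated cells it had 12.6, 12.8 and 11.5 CPM with ALA, against 5.66, 4.99 and 4.41 CPM without. Neither state shows an overlap, and NETO2 rose by 1.71 ± 0.25, adjusted p 0.014. AFDN, the junction protein afadin, rose by 1.41 ± 0.20, LIMA1, an actin-bundling protein, by 1.26 ± 0.22, and ANPEP, the myeloid surface peptidase CD13, by 1.24 ± 0.21. Their adjusted p were 0.012, 0.024 and 0.024, each with 6 of 6 pairs higher.

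The largest fall among called genes was in C1QB, 1 of the chains of the complement recognition protein C1q, on chromosome 2, 76650586 to 76655549, minus strand. C1QB had 3.56, 2.75 and 0.854 CPM in ALA cells, against 11.4, 8.92 and 5.18 CPM in untreated cells. The ConA libraries had 0.432, 0 and 0.184 CPM with ALA, against 6.20, 1.74 and 0.711 CPM without it. The groups do not overlap in either state, and the log2 fold change was -2.51 ± 0.41, adjusted p 0.024. The companion chains C1QC and C1QA had -2.51 ± 0.63 and -1.16 ± 0.27, lower in 6 and 5 of 6 pairs, with adjusted p of 0.24 and 0.18. C1q is made by macrophages and dendritic cells. The summed monocyte and macrophage markers were higher with ALA in 4 of 6 pairs, with 651 to 3600 CPM with ALA and 528 to 1790 CPM without. The mean difference was 322 CPM, 23.5 CPM without the resting pair of number 1 and -44.2 CPM without both pairs of number 1. In either of these fits 3 of the 21 monocyte and macrophage markers tested fell and 0 rose. The counts over all genes in these fits, given above, differ from that of the fit of all pairs. C1QB itself was at -2.51 without both, with an adjusted p of 0.10.

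C1QB was the 1 of 22 complement and matrix protease genes that passed, against 0.464% of all genes, 0 rose, and the median was 0.24. The proteases spread widely. MMP9, a gelatinase, had 249, 51.4 and 2240 CPM in ALA cells, against 18.9, 60.1 and 314 CPM in untreated cells. Among ConA cells the level was 784, 570 and 2320 CPM with ALA, against 50.3, 29.9 and 117 CPM without it. MMP9 was higher with ALA in 5 of 6 pairs, and its log2 fold change of 3.30 ± 0.76 had an adjusted p of 0.28.

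Of the other falls, SUCNR1, the receptor for succinate, had 0.166, 0.131 and 0 CPM in ALA cells, against 0.450, 0.905 and 0.291 CPM in untreated cells. With ConA and ALA it had 2.50, 0.897 and 0.551 CPM, against 18.2, 2.38 and 3.13 CPM with ConA. It fell by 2.29 on the log2 scale, with an SE of 0.39 and an adjusted p of 0.024. In the fits that leave out 1 pair, SUCNR1 passed in 4 of 6, and its highest adjusted p was 0.44. MATK, a kinase that restrains SRC family kinases, had 14.6, 8.70 and 18.6 CPM in ALA cells, against 23.2, 18.4 and 28.8 CPM in untreated cells. Under ConA it had 79.5, 76.1 and 51.8 CPM with ALA, against 110, 142 and 74.5 CPM without. Its levels overlap between the groups, yet each pair was lower with ALA, by -0.70 ± 0.10 with an adjusted p of 0.012.

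HS6ST1, a heparan sulfate sulfotransferase, fell by 0.93, and ATP13A2, a lysosomal polyamine exporter, fell by 0.86, with SE of 0.19 and 0.15. ABCA3, a lipid transporter, fell by 0.72 (SE 0.13), and CALHM6, a channel family protein of myeloid cells, fell by 0.68 (SE 0.10). SERPINB9, the inhibitor that protects cells from granzyme B, and ST3GAL5, the synthase of the ganglioside GM3, each fell by 0.63 (SE 0.11). PLAAT4, a phospholipid acyltransferase induced by retinoids, fell by 0.62 (SE 0.10). Each of these 7 was lower in 6 of 6 pairs, with adjusted p between 0.016 and 0.048.

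Whether the ALA effect is shared by both states was next examined in 2 fits that share no library. They share title numbers, and libraries of the same number deviated together, so the fits are not fully independent. In a fit of the 3 ConA pairs alone, 239 genes rose (1.79%) and 237 fell (1.77%), 3.56% of those tested. Of the 239, 189 (79.1%) were also higher with ALA in the fit of the 3 resting pairs, against 49.6% of all genes. With an unadjusted p under 0.05 in that fit there were 64 (26.8%), against 4.27% of all genes. Of the 237 that fell, 131 (55.3%) were lower in resting pairs, near the 50.4% of all genes, and 17 (7.17%) were so with an unadjusted p under 0.05, against 3.63% of all genes. The resting pairs alone gave 0 genes at an adjusted p under 0.05 in edgeR and 1055 at an unadjusted p under 0.05.

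Agreement among pairs was also described without a test. Across all genes tested, log2 differences of 2 resting pairs correlated at 0.057 to 0.092, those of 2 ConA pairs at 0.163 to 0.313, and those of a resting and a ConA pair at -0.003 to 0.149. These are descriptions across genes, which are not independent, and low counts add noise to each. In the fit with 1 ALA term per state, 7 genes rose and 0 fell in resting cells (0.0524%), and 109 rose (0.816%) and 72 fell (0.539%) with ConA, 1.35% in all. Of the 62 genes called over both states, all had 1 sign in both states, which the choice of such genes favours, against 50.3% of all genes in the fits of each state alone. The fold changes of those fits correlated at 0.114 over all genes. Of the 44 that rose, 43 had an unadjusted p under 0.05 in each state, and of the 18 that fell, 18 did. The choice of these genes from the same libraries favours this as well, so it is not separate evidence of a shared effect.

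**Figure D4:**
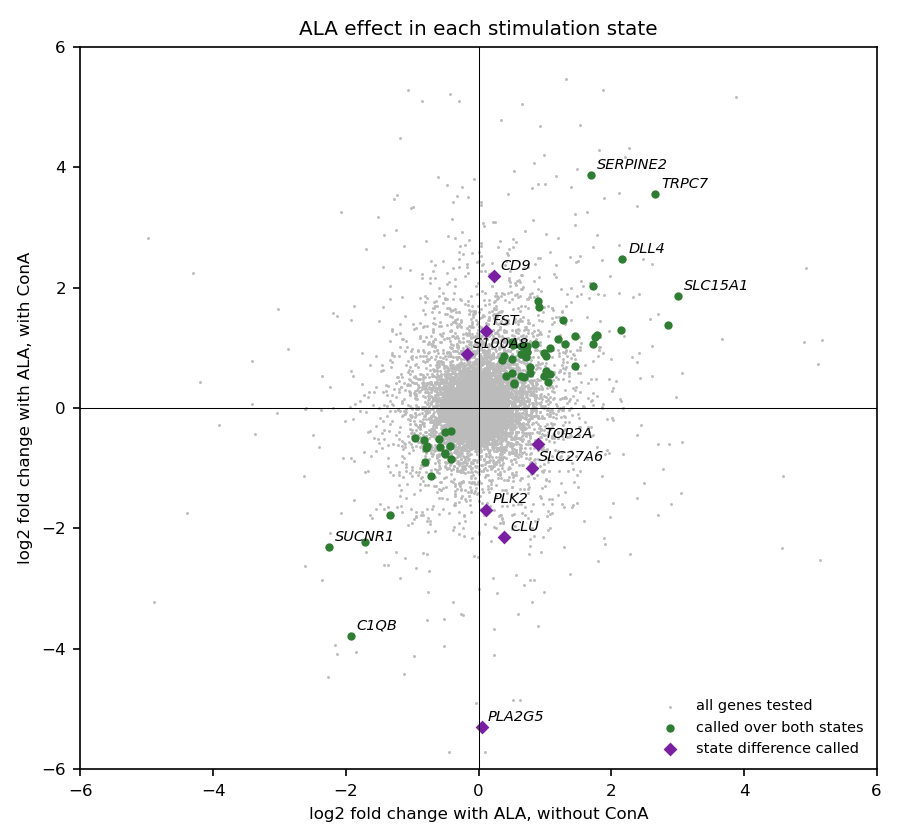
Log2 fold change with ALA in resting cells (x axis) and in cells with ConA (y axis) for all genes tested (grey), genes called over both states (green) and genes whose effect differed between states (purple diamonds). The axes end at -6 and 6, beyond which 9 genes lie. Green points occupy the upper right and lower left, while purple points lie near 0 on the x axis or change sign between the axes.

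The effect of ALA differed between states at 8 genes, 0.0599% of those tested, 3 more positive with ConA (0.0225%) and 5 more negative (0.0374%), none of them among the 62. With a block by number alone 0 passed, DESeq2 gave 105, and fits without a pair or a number gave 0 to 63. Of the 62, 10 had an unadjusted p of the difference under 0.05, and the smallest adjusted p was 0.22. A p that misses the threshold does not show that the states act alike. CLU, the extracellular chaperone clusterin, had 54.2, 34.5 and 19.3 CPM with ConA and ALA, against 257, 147 and 80.3 CPM with ConA. In resting cells it had 52.7, 21.2 and 58.4 CPM with ALA, against 27.0, 18.5 and 58.0 CPM without. The effect with ConA minus that in resting cells was -2.53 ± 0.23, adjusted p 0.00071. CD9, a tetraspanin of the cell surface, had 107, 57.4 and 43.6 CPM with ConA and ALA, against 22.6, 11.2 and 11.3 CPM with ConA, and differed little in resting cells, where the log2 fold change was 0.24 ± 0.14. Its difference between states was 1.95 ± 0.21, adjusted p 0.0016.

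PLA2G5, a secreted phospholipase, had 2.93, 0.897 and 0.735 CPM with ConA and ALA, against 119, 45.7 and 19.1 CPM with ConA. In resting cells it stayed under 1 CPM in each library. The difference between states was -5.35 ± 0.61, adjusted p 0.0029. PLK2, a stress-responsive kinase, differed by -1.81 ± 0.24, and S100A8, a calcium-binding protein of neutrophils and monocytes, by 1.07 ± 0.16. The activin antagonist FST (1.17 ± 0.18), TOP2A, the topoisomerase of dividing cells (-1.50 ± 0.23), and SLC27A6, a fatty acid transporter (-1.80), complete the set.

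Of 9 cell type marker lists, 2 had sums that lay on 1 side in 6 of 6 pairs. Over 15 library measures tested by an exact sign-flip permutation test of the 6 pairs, two-sided, the smallest p that 6 pairs allow is 0.031, and none passed after adjustment. The permutation treats the 6 pairs as separate units, though a resting and a ConA pair share each number. Summed neutrophil markers were higher with ALA in 6 of 6 pairs, with 972 to 3170 CPM with ALA against 180 to 1150 CPM without (exact p 0.031, adjusted p 0.23). By pair, the median log2 difference of the tested markers was 0.05, 0.12 and 0.0 in resting pairs 1, 2 and 3. In ConA pairs 1, 2 and 3 it was 2.06, 0.79 and 1.09. The sum was higher by 794 CPM on average in resting pairs and by 1350 CPM in ConA pairs. An exact permutation test of that difference between states gave p 0.5. Of the 19 neutrophil markers listed, 15 are in the tables, 13 were tested and 0 passed; none of the 15 was at 0 in all libraries. MMP9, which monocytes also express, held 47.3% of that sum. Without MMP9, an alternative chosen after the data were seen, the sum was still higher in 6 of 6 pairs, by 133 CPM on average, against 1070 CPM with it. By pair that difference was 1.15, 47.7 and 184 CPM in resting cells and 177, 203 and 185 CPM with ConA.

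Platelet markers were also higher in 6 of 6 pairs, with 28.2 to 117 CPM with ALA against 7.62 to 79.7 CPM without (exact p 0.031, adjusted p 0.23), and PPBP held 70.5% of that sum. Of 13 listed, 9 are in the tables, 7 were tested and 0 passed. Red cell lineage markers were higher in 5 of 6 pairs (exact p 0.094). T cell markers were lower with ALA in 3 of 3 resting pairs and higher in 3 of 3 ConA pairs. The share of gene reads in introns averaged 36.21% ± 4.69 with ALA and 34.56% ± 3.55 without (SD, n = 6 each; exact p 0.062), higher in 5 of 6 pairs. The part of these measures in the gene results was not tested. The FCN1 gene, a monocyte marker in other species, was at 0 in all libraries.

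**Figure D5:**
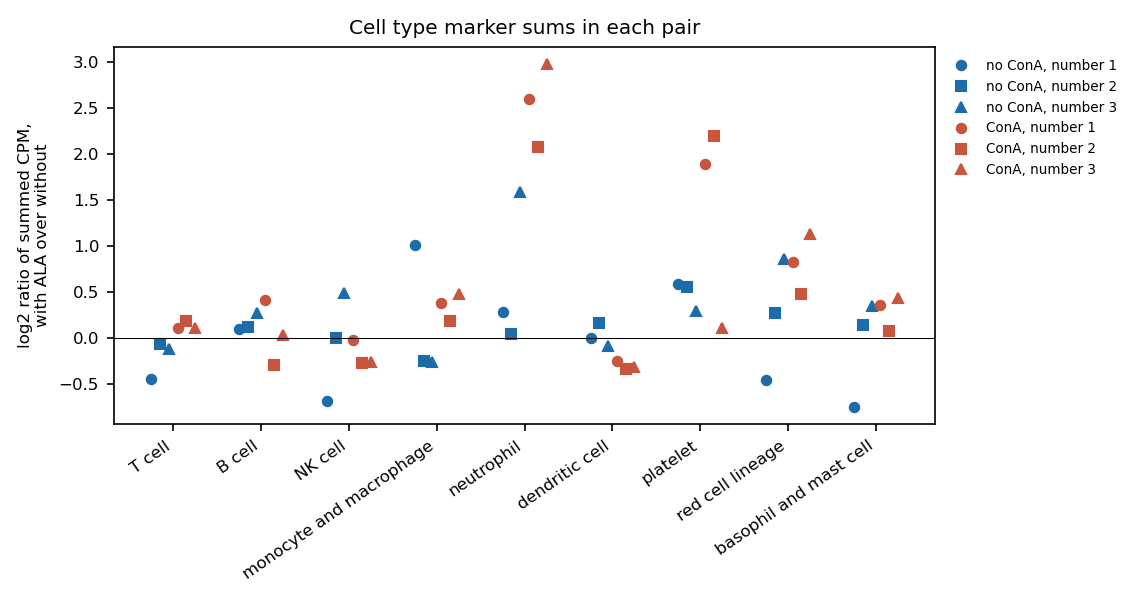
Log2 ratio of summed marker CPM, with ALA over without, in each of the 6 pairs for 9 cell type lists; blue points are resting pairs and orange points ConA pairs, with 1 marker shape per number. Neutrophil and platelet sums lie above 0 in 6 of 6 pairs, and the resting pair of number 1 stands apart for monocyte and macrophage markers.

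The remaining lists held no gene that passed, apart from SQSTM1 among 18 autophagy and lysosome genes, against 0.464% of all genes. Medians lay at 0.02 for 30 genes of the integrated stress response, 0.13 for 18 of the unfolded protein response and -0.08 for 20 of glycolysis. For nuclear-encoded respiratory complex I the median of 28 genes was -0.03, for complex IV that of 13 genes was -0.07, and for ATP synthase that of 9 genes was -0.09. In antigen presentation 17 of 18 genes were negative, against 6811 of all 13358 genes, with a median of -0.07 and none past the threshold. Only 11 of these 18 had 1 sign in both states, and the median by pair ran from -0.32 to 0.04. In the unfolded protein response 17 of 18 were positive, with a median of 0.32 in resting cells and -0.06 with ConA. For respiratory complexes II and III 11 of 11 were negative, with a median of -0.08, and 6 had 1 sign in both states. None of the 13 mitochondrially encoded genes passed, and their median was -0.01.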

How the data were processed

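Poly(A) RNA libraries (NEBNext Ultra II) were read in paired ends on a NextSeq 500, per the labels' protocols. The genome build is CanFam3.1, per the submitters' processing notes; aligner and strand use: not given in the sources used here. The deposited tables list 29822 Ensembl genes, 17892 with a symbol. Total exon reads are raw counts as deposited by the authors, per the file headers, and TPM values are the authors' own normalization, used only to describe levels.

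The test on counts was that of edgeR 4.0.16 (R 4.3.3; TMM, filterByExpr, robust quasi-likelihood F-test, 6 pair blocks plus ALA, 5 residual degrees of freedom), with Benjamini-Hochberg adjustment over 13358 genes. CPM use TMM-scaled library sizes. Pairing comes from the title numbers and a check: deviations from group means correlated at 0.376 to 0.748 for 18 library pairs of the same number and -0.498 to 0.206 for 36 others. The edgeR test was also run on simulated counts with known changes. These were drawn with the same ALA response in every pair of a state. That check therefore does not cover responses that differ among pairs.

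The comparison, members and gene lists were chosen with earlier results of these data known. Named genes were the 12 largest rises and falls with a symbol, a mean of 20 counts and 1 direction in 6 of 6 pairs, up to 4 members per list by p, a fixed set (HMOX1, ALAS1, FECH, TFRC, NQO1, IL2, IFNG, TNF, IL6, IL10, MKI67) and the 6 smallest p of the state difference. Some others were added where they make a list's values clear, and some genes the rule took are left out of the text. Alternatives were DESeq2 1.42.0, limma-voom (limma 3.58.1), other normalization, filters and blocks, unique reads, and each pair, number and state left out. Figures used matplotlib 3.10.9. Depth limits genes under about 1 CPM.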

Additional observations from a re-analysis of the deposited data

Results flagged for a closer look

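In 8 of 94 sets of 6 pair differences examined, 1 pair stood far from the other 5; chance flags about 1 in 20. The resting pair of number 1 was that pair for IL6, whose log2 CPM was higher with ALA by 4.25, for TNFRSF18 (-0.07, against rises in the other pairs), and for summed markers of T cells (-956 CPM), monocytes and macrophages (1820 CPM) and basophils and mast cells (-25.0 CPM). The resting pair of number 2 was that pair for 2 called genes known by identifier only, ENSCAFG00000009800 (0.02) and ENSCAFG00000045739 (-0.50). The ConA pair of number 3 was that pair for ENSCAFG00000015798 (0.17).

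The log2 effect of ALA with ConA minus that in resting cells was tested and differed from 0 for CLU (-2.53), CD9 (1.95), PLA2G5 (-5.35), PLK2 (-1.81), S100A8 (1.07), FST (1.17), TOP2A (-1.50) and SLC27A6 (-1.80). Summed T cell markers moved one way in the 3 ConA pairs (175 CPM higher with ALA on average) and the opposite way in the 3 resting pairs (-414 CPM on average); this difference between states was not tested beyond an exact permutation p of 0.10, the smallest that 3 pairs against 3 allow.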

How the results depend on the processing

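The count of 62 genes depended on the pairing. With no replicate block, 0 genes passed, 0 higher and 0 lower, and 0 differed between states (383 and 222 at an unadjusted p under 0.05 in edgeR), while the coefficient of variation was 0.422, against 0.211 with the block. With a block by number alone, 54 passed (43 among the 62) and 0 differed between states. DESeq2 gave 246 genes (171 higher, 75 lower; 61 of the 62 among them) and 105 between states, limma-voom 105 (72 and 33) and 32, and no filter 123 (86 and 37) and 175. The resting pairs alone gave 0, 0 higher and 0 lower, and the ConA pairs alone 476 (239 and 237). Fits without a pair or a number gave 1 to 171 genes, 1 to 74 higher and 0 to 97 lower, and 0 to 63 between states. The cause of these shifts was not tested.

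Other normalization, the stricter filter, unique reads and leaving out mitochondrial and hemoglobin genes gave 62 to 70 genes. Of the 62 genes, 60 kept their direction in all 18 alternatives, and TRPC7 and DLL4 kept theirs in the 17 that tested them. Of the 216 named genes, none changed direction while called.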
